A study of Mus musculus with 16 samples.

Results

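Nonsense-mediated decay (NMD) is the pathway that removes mRNAs on which translation ends too early. The 9 genes described here encode its core machinery and were given as a list of names: Upf1, Upf2, Upf3a, Upf3b, Smg1, Smg5, Smg6, Smg8 and Smg9. All 9 were present among the 15119 genes of the deposited counts table, and all 9 passed the filter on low counts that left 14434 genes for testing. Their levels were read from 16 poly(A) RNA-seq libraries of liver from female mice. The mice were WT (wild type) or LKO, in which Arglu1 was knocked out in hepatocytes. Arglu1 encodes a transcriptional coregulator that also acts in RNA splicing. Every group was first aged to 9 months on chow. The WT chow and LKO chow groups then stayed on chow for 12 weeks, while the WT HFD and LKO HFD groups were given a high-fat diet (TD. 88137) for the same time. Each of the 4 groups held 4 libraries. The labels name neither the driver of the hepatocyte deletion, nor the alleles that the WT mice carried, nor whether each library came from a different animal, so that errors and p-values measure the spread between these libraries.

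In NMD, an exon junction complex left behind on the mRNA downstream of a stop codon is bridged by UPF3 proteins and UPF2 to UPF1, an RNA helicase recruited where translation terminates. SMG1, a kinase of the PIKK family held in check by SMG8 and SMG9, then phosphorylates UPF1, and phosphorylated UPF1 is bound by SMG6, an endonuclease that cuts the mRNA near the stop codon, and by SMG5, an adaptor that brings in deadenylation and decapping. The pathway also trims normal transcripts, among them several mRNAs of the cell stress response, and unproductive splice forms of many RNA-binding proteins.

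The targeted transcript was lower in all LKO libraries, at 12.8 to 16.7 CPM (a gene's count after TMM scaling to a common library size) against 39.5 to 45.1 CPM in WT. Its log2 fold change was -1.49 on chow and -1.44 on HFD. Total estimated counts ran from 19142612 to 25120565 per library, and the members' counts from 121 to 2209. LKO chow libraries 3 and 4 lay far from libraries 1 and 2 of the same group on the second principal component of all genes (38.1 and 34.7 against -10.7 and -11.1, with 13.8% of the variance). Values or counts without either pair are given beside the chow results of the members and of the gene lists. Markers of hepatocytes were the most abundant of the cell type markers, their summed level being 113123 to 150803 CPM in WT chow, 133269 to 143533 CPM in LKO chow, 86959.7 to 92854.9 CPM in WT HFD and 98842.2 to 117477 CPM in LKO HFD.

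The promoters of the 4 members that were called in a genotype comparison are shown to place the results on the sequence. They are bases upstream of the annotated gene start, from RefSeq on GRCm38.p6, read 5′ to 3′ on the gene's strand, and the capitals mark matches to motifs searched on both strands: the GC box (letters GGGCGG), the CCAAT box (its name is its letters) and an ETS core (letters CCGGAAG), each also as its reverse complement. Overlapping GC boxes run together in the Upf2 sequence, and the Smg1 window covers 23 exon bases of 4930583K01Rik.
Upf2, chr2:5951219-5951468, plus strand: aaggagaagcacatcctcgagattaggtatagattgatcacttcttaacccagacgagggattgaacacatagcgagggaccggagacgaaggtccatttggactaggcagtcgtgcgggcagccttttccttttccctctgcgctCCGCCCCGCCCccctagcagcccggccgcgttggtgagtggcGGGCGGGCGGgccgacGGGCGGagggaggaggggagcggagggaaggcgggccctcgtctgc
Smg1, chr7:118243671-118243887, minus strand: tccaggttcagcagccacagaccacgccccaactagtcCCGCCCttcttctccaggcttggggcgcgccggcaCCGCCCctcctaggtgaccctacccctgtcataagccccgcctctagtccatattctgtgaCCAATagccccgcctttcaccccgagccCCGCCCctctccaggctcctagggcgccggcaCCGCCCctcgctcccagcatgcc
Smg8, chr11:87086778-87087027, minus strand: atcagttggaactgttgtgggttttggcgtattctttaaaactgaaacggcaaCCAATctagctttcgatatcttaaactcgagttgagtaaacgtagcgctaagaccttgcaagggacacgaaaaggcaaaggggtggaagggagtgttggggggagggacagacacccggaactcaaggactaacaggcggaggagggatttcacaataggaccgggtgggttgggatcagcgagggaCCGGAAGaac
Smg9, chr7:24399378-24399618, plus strand: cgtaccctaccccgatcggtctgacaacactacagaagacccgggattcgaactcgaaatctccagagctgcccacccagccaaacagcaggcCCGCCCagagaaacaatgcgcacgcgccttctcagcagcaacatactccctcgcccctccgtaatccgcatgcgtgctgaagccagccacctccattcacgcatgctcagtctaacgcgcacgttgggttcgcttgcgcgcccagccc

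All 9 members had a promoter entry. In the 250 bases before the start, a GC box was found in 7 of the 9 (not in Smg5 or Smg8), as in 32.7% of the 32851 promoters of the table. A CCAAT box was found in 4 of them (Upf3a, Upf3b, Smg1 and Smg8), against 33.9% of all promoters. The ETS core was present in Smg8 alone and in 6.91% of all promoters. Neither the TATA box, searched as TATAAA (12.4% of promoters), nor the E-box, searched as CACGTG (6.02%), was in any of the 9 windows. The members' windows ran from 50.8% GC in Smg8 to 72.8% in Upf1, the median of all promoters being 52.4%. In the stretches printed, of 217 to 250 bases, Upf2 held 5 GC boxes, Smg1 held 4, Smg9 held 1, and Smg8 none. The GC box was also found in Upf1, Upf3a, Upf3b and Smg6, which were not called in a genotype comparison. A relation between these motifs and the levels was not tested.

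Per length, Upf1 stood above the other members in every library. Over the 16 libraries it averaged 17.1 ± 1.19 CPM per kb of annotated exon (SD, n = 16), and its lowest library, at 14.9 CPM per kb, lay above the highest library of any other member. Smg5 followed at 5.81 ± 0.546 CPM per kb and Smg6 at 4.24 ± 0.384 CPM per kb, and the libraries of these neighbours did not overlap (5.13 to 7.29 against 3.55 to 5.03). Below Smg6, levels averaged 3.54 ± 0.446 CPM per kb for Upf2, 3.45 ± 0.381 for Upf3b, 3.13 ± 0.352 for Smg1, 2.94 ± 0.476 for Smg8, 2.73 ± 0.397 for Smg9 and 2.14 ± 0.328 for Upf3a. Each of these neighbours in the order overlapped the next over the libraries. Exon length was taken over all annotated transcripts, retained-intron transcripts included. Smg1 and Smg5 have 5 of these each, Smg9 has 4, Upf3a has 2 and Smg6 has 1. Without division by length, Upf3a averaged 12.6 CPM over the 16 libraries, above Smg9 at 10.1 CPM and Smg8 at 9.46 CPM.

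The comparison of LKO with WT on chow bears on what the loss of hepatocyte Arglu1 does to these transcripts. On chow, Upf2 and Smg1 were lower and Smg9 was higher in LKO, by 18.3%, 16.8% and 30.2%, while the other 6 members were not called. A gene was called at an adjusted p below 0.05 in edgeR's quasi-likelihood test, adjusted over all genes tested. The share of called members, 3 of 9 (33.3%), stood beside 24.7% of all genes tested (12.9% higher and 11.8% lower in LKO). The members' median log2 fold change was -0.01 and that of all genes 0.02, and the median size of the change regardless of sign was 0.25 for both. Without LKO chow libraries 1 and 2 the called members were Upf2, Smg6 and Smg9, and without libraries 3 and 4 none was called. The libraries of WT and LKO did not overlap for Upf2 and Smg9, as was so for 21.4% of all genes. In bulk liver, fewer cells of a type and less RNA per cell cannot be told apart.

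**Figure D1:**
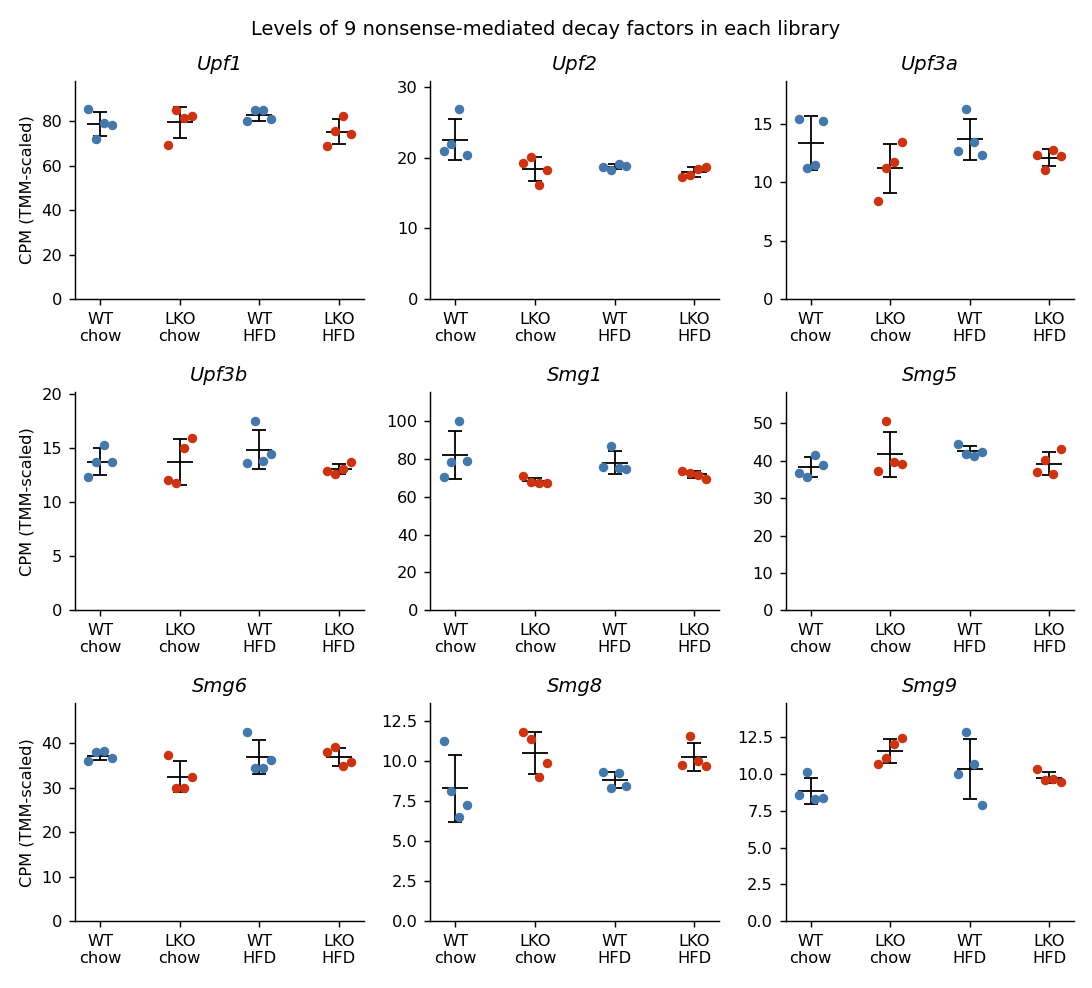
Levels of the 9 factors in each library, in TMM-scaled CPM on linear axes that start at 0, by group (blue, WT; red, LKO). Points are libraries, and bars give the group mean and SD (n = 4). Upf2 in WT chow lies above Upf2 in LKO chow, and Smg9 in WT chow below Smg9 in LKO chow, without overlap.

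Of the UPF proteins, Upf2, the scaffold between UPF1 and UPF3 (chromosome 2, 5951469 to 6056703, plus strand, GRCm38), was the member called on chow. Its CPM in WT chow libraries 1 to 4 was 20.9, 21.9, 26.8 and 20.4. In LKO chow libraries 1 to 4 it was 19.3, 20.05, 16.1 and 18.2 CPM. Every LKO chow library was below every WT chow library, and WT chow library 3 stood highest. WT chow averaged 22.5 ± 2.92 CPM and LKO chow 18.4 ± 1.72 CPM (SD, n = 4 each). The fitted log2 fold change was -0.29 (SE 0.094, 95% interval -0.49 to -0.09, edgeR adjusted p = 0.0314). The call was lost without WT chow library 3 (-0.20, adjusted p = 0.119), without LKO chow library 3 (-0.23, adjusted p = 0.110) or 4 (-0.29, adjusted p = 0.0648), and without both (-0.19, adjusted p = 0.236), while omitting LKO chow libraries 1 and 2 gave -0.40 (adjusted p = 0.0103). It held in 12 of 19 alternatives, with adjusted p from 0.0103 to 0.236.

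On HFD the Upf2 levels of the genotypes lay together. WT HFD libraries 1 to 4 held 18.7, 18.2, 19.04 and 18.8 CPM, and LKO HFD libraries 17.3, 17.5, 18.4 and 18.7 CPM. The log2 fold change was -0.06 (SE 0.094, 95% interval -0.26 to 0.14, adjusted p = 0.744). The WT libraries on HFD were all below the WT libraries on chow, at a log2 fold change of -0.27 that was not called (edgeR adjusted p = 0.163), and the genotype difference itself was not shown to differ between diets (interaction 0.23, SE 0.133, edgeR adjusted p = 0.624). WT chow was thus the group in which Upf2 was highest, with the other 3 group means at 17.97 to 18.7 CPM.

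Upf1, the helicase on which the pathway turns (chromosome 8, 70331525 to 70353278, minus strand), was at 72.2 to 85.2 CPM in WT chow and 69.5 to 85.2 CPM in LKO chow, and at 80.2 to 85.0 CPM in WT HFD and 68.9 to 82.3 CPM in LKO HFD. The genotypes overlapped on both diets. Its log2 fold change was 0.01 on chow (95% interval -0.16 to 0.19, edgeR adjusted p = 0.925) and -0.14 on HFD (95% interval -0.31 to 0.04, edgeR adjusted p = 0.288), and the sign of the chow value turned under DESeq2 or its size factors and without LKO chow libraries 3 and 4 (-0.025; 0.053 without 1 and 2). Of the annotated exon bases of Upf1, 68 of 4618 (1.47%) lie in exons of Cers1 and Gdf1 on the opposite strand, and the use of strand in counting is not given in the sources used here.

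Upf3a and Upf3b are paralogs that take the same place between UPF2 and the exon junction complex, and both overlapped between genotypes on either diet. Upf3a (chromosome 8, 13785615 to 13799193, plus strand) averaged 13.3 ± 2.30 CPM in WT chow, 11.2 ± 2.09 in LKO chow, 13.7 ± 1.77 in WT HFD and 12.1 ± 0.729 CPM in LKO HFD (SD, n = 4 each). Its log2 fold change in LKO was -0.25 on chow (SE 0.145, edgeR adjusted p = 0.225) and -0.18 on HFD (SE 0.144, edgeR adjusted p = 0.449). The chow value of Upf3a was -0.09 without LKO chow libraries 1 and 2 and -0.44 without libraries 3 and 4 (adjusted p = 0.697 and 0.0870, the range over its alternatives). X-linked Upf3b (chromosome X, 37091678 to 37110322, minus strand) averaged 13.7 ± 1.23 CPM in WT chow, 13.7 ± 2.08 in LKO chow, 14.8 ± 1.82 in WT HFD and 13.02 ± 0.464 CPM in LKO HFD. Its 4 LKO chow libraries fell into the same pairs as on the second principal component, at 12.1 and 11.8 CPM in libraries 1 and 2 and 14.99 and 15.9 CPM in libraries 3 and 4. A link between the gene and that component was not tested. The chow difference was -0.01 (edgeR adjusted p = 0.980) and took the other sign without libraries 1 and 2 (0.17, adjusted p = 0.286, the range over the alternatives being 0.284 to 0.994) and under upper-quartile scaling, a mean count of at least 50 or voom, and was -0.20 without libraries 3 and 4 (adjusted p = 0.284).

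The log2 ratio of Upf3a to Upf3b counts within a library, which does not depend on library size, was -0.05 ± 0.35 in WT chow and -0.30 ± 0.19 in LKO chow (SD, n = 4 each). The difference of -0.25 was within the spread between libraries (2-sided exact permutation test, p = 0.286, 0.381 after adjustment over the 4 ratio tests made), and omitting LKO chow libraries 1 and 2 gave -0.25, and 3 and 4 -0.24. On HFD the ratio was -0.12 ± 0.08 in WT and -0.11 ± 0.07 in LKO, a difference of 0.01 (exact p = 0.8286). The widest spread was in WT chow, from -0.42 to 0.33, while all 8 HFD libraries lay between -0.23 and -0.03. With 4 libraries against 4 the smallest p this test can give is 0.0286.

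Within the SMG1 kinase complex, Smg1 was lower and Smg9 higher in LKO on chow, and Smg8 was not called there. Smg1 (chromosome 7, 118131308 to 118243670, minus strand) stood at 70.8, 78.4, 100.4 and 79.0 CPM in WT chow libraries 1 to 4. LKO chow libraries 1 to 4 held 71.0, 67.7, 67.5 and 67.2 CPM. WT chow library 3 was far above the rest, and WT chow library 1 fell just below LKO chow library 1, so the groups overlapped. WT chow averaged 82.1 ± 12.7 CPM and LKO chow 68.4 ± 1.79 CPM (SD, n = 4 each), and the fitted log2 fold change was -0.26 (SE 0.094, 95% interval -0.46 to -0.07, edgeR adjusted p = 0.0480). This call was the least stable of those made: it held in 5 of 19 alternatives, with adjusted p from 0.0178 to 0.181, and only the omission of WT chow library 1 kept it among the 8 single omissions. Without WT chow library 3 the change was -0.15 (adjusted p = 0.181), without LKO chow libraries 1 and 2 it was -0.29 (adjusted p = 0.0631), and without libraries 3 and 4 it was -0.24 (adjusted p = 0.176).

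On HFD the Smg1 libraries of the genotypes did not overlap, although the difference was smaller. WT HFD libraries 1 to 4 held 75.8, 87.1, 75.2 and 74.7 CPM, and LKO HFD libraries 73.9, 72.7, 71.4 and 69.5 CPM. All 4 LKO libraries were lower than all 4 WT libraries. The log2 fold change was -0.12 (SE 0.094, 95% interval -0.32 to 0.08) and was not called (edgeR adjusted p = 0.417), and 27.8% of all genes showed no overlap between these groups. The difference between diets was 0.14 (SE 0.133, edgeR adjusted p = 0.750).

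Smg9, which binds SMG8 and with it restrains the kinase (chromosome 7, 24399619 to 24422778, plus strand), was higher in LKO on chow. WT chow libraries 1 to 4 held 8.54, 10.1, 8.29 and 8.36 CPM. LKO chow libraries 1 to 4 held 10.7, 11.03, 11.98 and 12.4 CPM. All LKO chow libraries exceeded all WT chow libraries. WT chow averaged 8.83 ± 0.881 CPM and LKO chow 11.5 ± 0.809 CPM (SD, n = 4 each), and the fitted log2 fold change was 0.38 (SE 0.127, 95% interval 0.11 to 0.65, edgeR adjusted p = 0.0373). The call held in 12 of 19 alternatives, with adjusted p from 0.0259 to 0.222. It was lost without WT chow library 1 (0.36, adjusted p = 0.0771), 3 (0.35, adjusted p = 0.0898) or 4 (0.35, adjusted p = 0.0866), without LKO chow library 3 (0.36, adjusted p = 0.0855) or 4 (0.34, adjusted p = 0.0946), and without both LKO libraries (0.29, adjusted p = 0.222), while omitting LKO chow libraries 1 and 2 gave 0.46 (adjusted p = 0.0292).

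On HFD, Smg9 was at 9.94, 12.8, 10.7 and 7.90 CPM in WT libraries 1 to 4 and at 10.3, 9.55, 9.63 and 9.44 CPM in LKO libraries. WT HFD spanned both the highest and the lowest Smg9 levels seen in the study, and all LKO HFD libraries fell inside that span. The log2 fold change was -0.09 (SE 0.127, 95% interval -0.35 to 0.18, adjusted p = 0.712), and it took the other sign without WT HFD library 2 (0.03, adjusted p = 0.895, the range over the alternatives being 0.319 to 0.932). Smg9 had the largest interaction of the 9 members, -0.47 (SE 0.180, 95% interval -0.84 to -0.09), which was not called (unadjusted p = 0.0188, edgeR adjusted p = 0.493). The interaction was called for none of the members and for 0.0208% of all genes (3 of 14434). Across all genes of LKO and WT, 1264 were called without LKO chow libraries 1 and 2 and 47 under DESeq2, with no member called in either. The Smg9 interaction was -0.55 without LKO chow libraries 1 and 2 (adjusted p = 0.102) and -0.38 without 3 and 4 (adjusted p = 0.717), the range over its alternatives being 0.102 to 0.751. Of the 9 members, 1 (Smg9) had an unadjusted interaction p below 0.05, and none was called in any alternative, DESeq2 and voom included.

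Smg8, the other partner that restrains SMG1 (chromosome 11, 87077732 to 87086774, minus strand), had its chow groups overlapping and its HFD groups apart. WT chow libraries 1 to 4 held 11.3, 8.13, 6.51 and 7.24 CPM, and LKO chow libraries 11.8, 11.3, 8.97 and 9.88 CPM. WT chow library 1 lay within the LKO range and the other 3 WT libraries below it. The log2 fold change of 0.34 was not called (SE 0.147, edgeR adjusted p = 0.1003), but was 0.52 without WT chow library 1 (adjusted p = 0.00767, the range over the alternatives being 0.00767 to 0.446). Omitting LKO chow libraries 1 and 2 gave 0.18 and omitting 3 and 4 gave 0.48, neither of them called. On HFD, WT libraries held 9.27, 8.31, 9.24 and 8.45 CPM and LKO libraries 9.76, 11.5, 10.004 and 9.65 CPM. Here every LKO library was above every WT library, with a log2 fold change of 0.22 (SE 0.146, 95% interval -0.09 to 0.52, edgeR adjusted p = 0.344).

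The decay effectors Smg5 and Smg6 were not called on either diet. Smg5 (chromosome 3, 88336260 to 88362338, plus strand) averaged 38.3 ± 2.63 CPM in WT chow, 41.7 ± 6.12 in LKO chow, 42.5 ± 1.45 in WT HFD and 39.2 ± 3.08 CPM in LKO HFD (SD, n = 4 each). Its LKO chow library 2 stood alone at 50.7 CPM, the other LKO chow libraries being at 37.3 to 39.5 CPM. On chow the log2 fold change of Smg5 was 0.12 (SE 0.096, edgeR adjusted p = 0.384; 0.04 without LKO chow libraries 1 and 2 and 0.20 without 3 and 4) and on HFD -0.12 (SE 0.096, edgeR adjusted p = 0.453). Smg6 (chromosome 11, 74925823 to 75164448, plus strand) was at 36.1 to 38.1 CPM in WT chow. LKO chow library 1 lay inside that range at 37.4 CPM, and LKO chow libraries 2 to 4 lay below it at 30.03, 30.02 and 32.4 CPM. The log2 fold change of Smg6 on chow was -0.20 (SE 0.089, edgeR adjusted p = 0.120), and it was called without LKO chow library 1 (-0.27, adjusted p = 0.0302) and without libraries 1 and 2 (-0.26, adjusted p = 0.0491), and was -0.14 without libraries 3 and 4 (adjusted p = 0.403, the range over the alternatives being 0.0302 to 0.403). On HFD it was 0.00 (SE 0.089, 95% interval -0.19 to 0.19, edgeR adjusted p = 0.993). Of the exon bases of Smg6, 243 of 8453 (2.88%) are shared with Srr and Gm12333 on the opposite strand.

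The log2 ratio of Smg5 to Smg6, the adaptor against the endonuclease, was 0.04 ± 0.09 in WT chow and 0.36 ± 0.32 in LKO chow (SD, n = 4 each). LKO chow libraries 2, 3 and 4 were above every WT chow library, at 0.76, 0.40 and 0.28, and LKO chow library 1 was within the WT range of -0.091 to 0.13, at -0.0046. The difference of 0.32 was not separable from the spread (2-sided exact permutation test, p = 0.114, adjusted p = 0.381). Omission of LKO chow libraries 1 and 2 gave 0.30, and that of libraries 3 and 4 gave 0.34. Of all the alternatives for the ratios, only 1 brought the unadjusted exact p below 0.05, the omission of LKO chow library 1 here. The replicate block and the omission of a pair of libraries could not do so, as they leave too few arrangements of the libraries. On HFD the difference had the other sign, -0.13 (exact p = 0.2, adjusted p = 0.381).

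**Figure D2:**
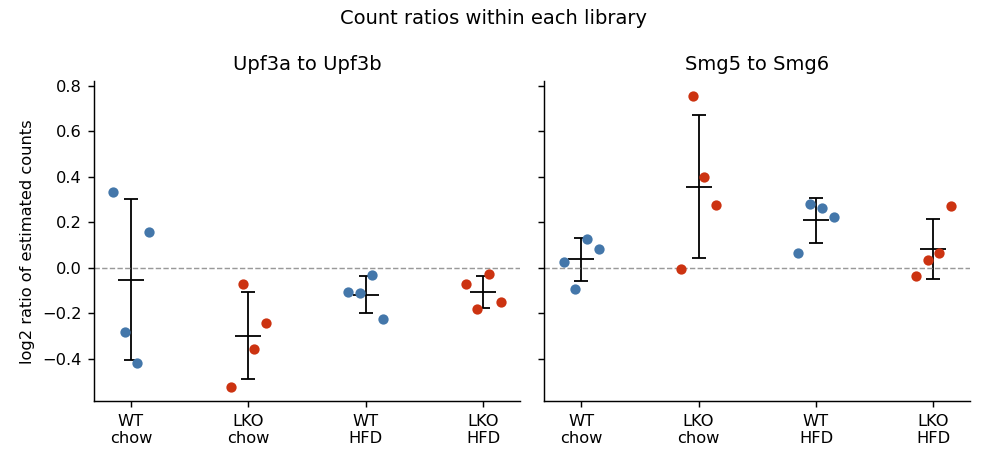
Log2 ratios of estimated counts within each library for Upf3a to Upf3b and for Smg5 to Smg6, by group (blue, WT; red, LKO; bars, mean and SD, n = 4). In the Smg5 to Smg6 ratio, 3 LKO chow libraries lie above all WT chow libraries, between 0.28 and 0.76.

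The comparison on HFD asked the same question of mice on the high-fat diet, and none of the 9 members was called, against 17.9% of all genes tested (10.3% higher, 7.57% lower). None had an unadjusted p below 0.05 in edgeR, and none was called in any of the 17 alternatives, DESeq2 and voom included. The members' median log2 fold change was -0.12 against -0.01 for all genes, and their median size of change 0.12 against 0.22. Smg1, lower, and Smg8, higher, were the 2 members without overlap between genotypes, beside 27.8% of all genes.

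Averaged over both diets, with 8 libraries a genotype, Smg1 was lower and Smg8 higher in LKO. These 2 of 9 members (22.2%) stood beside 34.1% of all genes called in that comparison (18.4% higher, 15.7% lower). Smg1 averaged 80.2 ± 9.43 CPM over the WT and 70.1 ± 2.54 CPM over the LKO libraries (SD, n = 8 each), with a log2 fold change of -0.19 (SE 0.066, 95% interval -0.33 to -0.05, edgeR adjusted p = 0.0319). The means of Smg8 were 8.55 ± 1.44 CPM over WT and 10.4 ± 1.04 CPM over LKO, with a log2 fold change of 0.28 (SE 0.104, 95% interval 0.06 to 0.50, edgeR adjusted p = 0.0456). Upf2 missed the threshold at -0.17 (edgeR adjusted p = 0.0524), and Smg9 was at 0.15 (edgeR adjusted p = 0.228). The Smg1 call held in 19 of 26 alternatives (adjusted p 0.0113 to 0.0757) and was lost without WT chow library 3 (-0.14, adjusted p = 0.0560), LKO chow library 3 (-0.19, adjusted p = 0.0520), WT HFD library 2 (-0.17, adjusted p = 0.0684) or LKO HFD library 3 (-0.19, adjusted p = 0.0526) or 4 (-0.18, adjusted p = 0.0609), and without LKO chow libraries 3 and 4 (-0.18, adjusted p = 0.0757). Without LKO chow libraries 1 and 2 the called members were Smg1 and Upf2 (-0.20 and -0.23), and without libraries 3 and 4 they were Smg8 and Upf3a (0.35 and -0.31). The Smg8 call held in 9 of 26 (adjusted p 0.00334 to 0.171), and of the 16 single omissions only those of WT chow library 1 and LKO chow library 3 kept it.

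**Figure D3:**
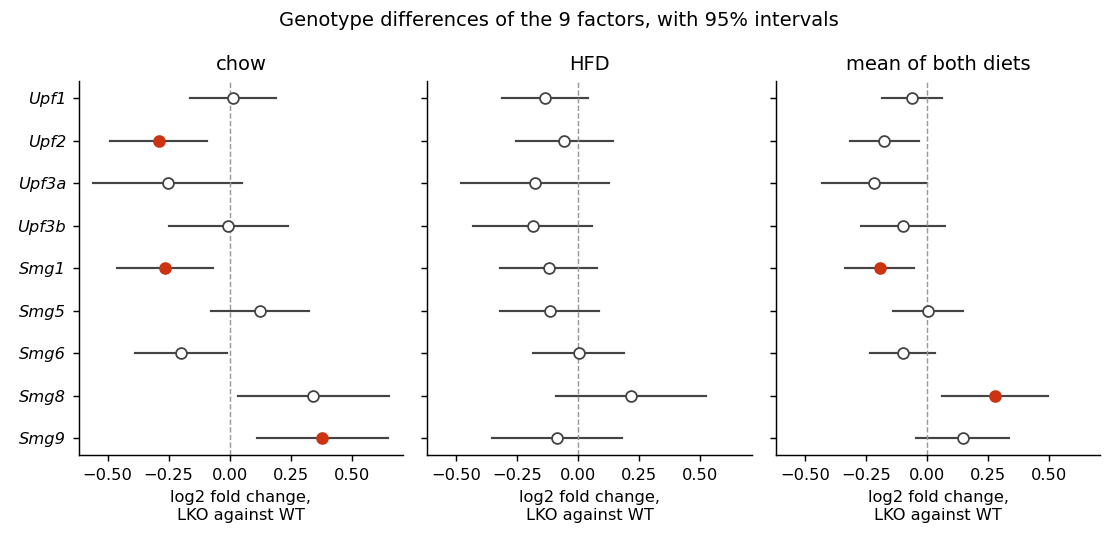
Fitted log2 fold changes of the 9 factors in LKO against WT on chow, on HFD and as the mean of both diets, with 95% intervals. Filled red points passed the adjusted p threshold of 0.05 and open points did not. Smg8 lies to the right of 0 in all panels and Smg1 to the left.

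The diet comparisons asked how the same transcripts differed between HFD and chow within a genotype. In WT and in LKO, none of the 9 members was called between HFD and chow, against 2.04% and 2.22% of all genes, and 1 member in WT (Upf2) and none in LKO had an unadjusted p below 0.05 in edgeR. None was called by DESeq2 or voom, or without either pair of LKO chow libraries. The counts over all genes were less stable: 294 were called in WT and 702 under DESeq2, and 320 in LKO, 2053 under voom, 2768 without LKO chow libraries 1 and 2 and 179 without 3 and 4. In WT the values ran from -0.27 for Upf2 (SE 0.094) to 0.22 for Smg9 (SE 0.128), and in LKO from -0.24 for Smg9 (SE 0.126, edgeR adjusted p = 0.337) to 0.19 for Smg6 (SE 0.089, edgeR adjusted p = 0.288). Upf2 in WT and Smg9 in LKO were the members whose HFD and chow libraries did not overlap, both lower on HFD, as was so for 9.51% and 10.2% of all genes in either direction. The comparisons share libraries: WT chow enters both the genotype comparison on chow and the diet comparison in WT.

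Genes that act around the 9 factors were described in lists. The exon junction complex, which marks spliced mRNAs for the pathway, had 10 tested genes, of which none was called on chow (24.7% of all genes) and 2 were lower on HFD (20% of the list, against 17.9% of all genes, 7.57% lower). Rnps1, a peripheral junction protein, averaged 27.95 ± 1.04 CPM in WT HFD and 21.97 ± 0.751 CPM in LKO HFD (SD, n = 4 each), with a log2 fold change of -0.35 (edgeR adjusted p = 0.00320), and Acin1 changed by -0.30 (edgeR adjusted p = 0.0391). Over both diets 3 of 10 were lower and none higher, the third being the helicase of the complex core, Eif4a3, at -0.16 (edgeR adjusted p = 0.0408), and the median of the 10 was -0.02. The share of 30%, all lower, stood beside 34.1% of all genes called in either direction and 15.7% called lower. Over both diets the call of Rnps1 held in all 26 alternatives, that of Acin1 in 12 and that of Eif4a3 in 13, and on HFD that of Acin1 held in 11 of 17. The list had 1 call on chow and 1 over both diets without LKO chow libraries 1 and 2, and 0 and 3 without libraries 3 and 4.

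Among 7 genes of translation termination and of cap and poly(A) binding, 3 were lower and none higher on chow (42.9%, against 24.7% of all genes, 11.8% lower), and 2 lower and none higher on HFD (28.6%, against 17.9%, 7.57% lower). Over both diets 2 were lower and none higher (28.6% of the list, against 34.1% of all genes, 15.7% lower). Pabpc4, a cytoplasmic poly(A)-binding protein, fell from 45.9 ± 1.96 to 28.5 ± 1.64 CPM on chow (log2 fold change -0.68, edgeR adjusted p = 4.47e-06) and from 40.1 ± 2.18 to 28.1 ± 1.74 CPM on HFD (-0.52, edgeR adjusted p = 0.000111; SD, n = 4 each). Ncbp1, the large subunit of the nuclear cap-binding complex, fell by 0.35 and 0.43 on the log2 scale (edgeR adjusted p = 0.0289 and 0.0128). Pabpc1, whose protein near a stop codon counteracts NMD, was lower on chow (-0.27, edgeR adjusted p = 0.0250). The calls of Pabpc1 and Ncbp1 on chow held in 12 of 19 alternatives each, that of Pabpc4 in all 19, and the count on chow was 5 without LKO chow libraries 1 and 2 and 1 without libraries 3 and 4.

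Of 10 other NMD factors, Mov10, an RNA helicase that works with UPF1, was the only one called in either genotype comparison (10% of the list, against 24.7% and 17.9% of all genes). It rose from 29.2 ± 2.85 to 53.1 ± 4.92 CPM on chow (log2 fold change 0.86, edgeR adjusted p = 4.64e-06) and from 30.8 ± 2.55 to 54.0 ± 3.81 CPM on HFD (0.81, edgeR adjusted p = 1.16e-05; SD, n = 4 each), and both calls held in all alternatives. The count of this list on chow was 4 without LKO chow libraries 1 and 2 and 1 without libraries 3 and 4.

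Of 17 tested mRNA decay enzymes, 2 were higher and 2 lower on chow, and 2 higher and 4 lower on HFD, or 23.5% and 35.3% of the list against 24.7% and 17.9% of all genes. Over both diets 2 were higher and 3 lower (29.4% of the list, against 34.1% of all genes). Pan2, the catalytic subunit of a deadenylase, rose from 38.1 ± 3.64 to 67.4 ± 11.8 CPM on chow (log2 fold change 0.82, edgeR adjusted p = 9.80e-05) and by 0.70 on HFD (edgeR adjusted p = 0.000532). Pan3, of the same list, went the other way over both diets (-0.27, edgeR adjusted p = 0.0214), a call that held in 24 of 26 alternatives. Pan3 averaged 26.2 ± 1.19 CPM in WT HFD and 20.1 ± 2.28 CPM in LKO HFD, and was not called on chow. Cnot6, a catalytic subunit of the CCR4-NOT deadenylase, fell by 0.53 and 0.37 on the log2 scale (edgeR adjusted p = 0.00104 and 0.0158). Xrn1, the 5′ to 3′ exonuclease that degrades the fragment left by SMG6, fell by 0.34 and 0.46 (edgeR adjusted p = 0.0306 and 0.00631). The Xrn1 call on chow held in 13 of 19 alternatives and the Cnot6 call on HFD in 15 of 17. The chow count was 9 without LKO chow libraries 1 and 2 and 3 without libraries 3 and 4.

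SMG1 belongs to the PIKK kinases, which are assembled by the TTT chaperone, and of 8 such genes tested besides Smg1, 1 was higher and 4 lower on chow, and 1 higher and 2 lower on HFD, or 62.5% and 37.5% of the list against 24.7% and 17.9% of all genes. As the mean of both diets, 1 was higher and 3 lower (50% of the list, against 34.1% of all genes). Mtor, the growth-regulating kinase, rose by 0.44 on chow (edgeR adjusted p = 0.0123) and by 0.41 on HFD (edgeR adjusted p = 0.0230). Atr, the replication stress kinase, went from 12.6 ± 2.87 to 8.83 ± 0.770 CPM on chow (log2 fold change -0.52, edgeR adjusted p = 0.00906) and from 15.99 ± 0.648 to 10.2 ± 1.05 CPM on HFD (-0.64, edgeR adjusted p = 0.00228; SD, n = 4 each). Prkdc, the DNA-dependent kinase, fell by 0.41 and 0.53 on the log2 scale (edgeR adjusted p = 0.0394 and 0.0122), and Tti1, a subunit of TTT, fell by 0.36 on chow (edgeR adjusted p = 0.0203). The Smg1 changes of -0.26 and -0.12 were thus of the same sign as those of Atr and Prkdc and opposite to that of Mtor. The other PIKK genes of the list, Atm and Trrap, also had lower means in LKO. Atm averaged 10.6 CPM in WT chow, 7.11 in LKO chow, 10.2 in WT HFD and 9.69 CPM in LKO HFD. Trrap averaged 61.1, 59.0, 55.3 and 48.7 CPM in the same order. On chow the Prkdc call held in 10 of 19 alternatives, that of Tti1 in 13, that of Mtor in 17 and that of Atr in 18, and on HFD that of Mtor held in 12 of 17. The chow count of the list ran from 0 to 5 over the 19 alternatives, and was 4 without LKO chow libraries 1 and 2 and 2 without libraries 3 and 4.

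Known coding targets of NMD did not share a direction. Of 8 tested, 1 was higher and 1 lower in LKO on chow, and 1 higher and none lower on HFD, or 25% and 12.5% of the list against 24.7% and 17.9% of all genes. Over both diets 2 were higher and 1 lower (37.5% of the list, against 34.1% of all genes). Ddit3, which encodes the stress transcription factor CHOP, rose from 6.42 ± 0.881 to 10.4 ± 1.91 CPM on chow (log2 fold change 0.69, edgeR adjusted p = 0.00148) and from 6.58 ± 0.364 to 11.7 ± 1.04 CPM on HFD (0.83, edgeR adjusted p = 0.000333; SD, n = 4 each). Tbl2 fell by 0.35 on chow (edgeR adjusted p = 0.0215), a call that held in 14 of 19 alternatives. The chow count of these coding targets was 2 without LKO chow libraries 1 and 2 and 1 without libraries 3 and 4. Gadd45b, at no more than 3.46 CPM in any library, was higher over both diets (0.65, edgeR adjusted p = 0.0376). That call held in 13 of 25 alternatives. Gadd45a, a DNA damage and stress gene, differed by diet instead: it rose on HFD by 0.80 in WT (edgeR adjusted p = 0.0473) and by 0.98 in LKO (edgeR adjusted p = 0.0173), and Atf4 fell on HFD in WT by 0.42 (edgeR adjusted p = 0.0307). The diet calls in WT held in 7 of 17 alternatives for Gadd45a and 8 of 17 for Atf4. Of 15 noncoding snoRNA host transcripts, another class of NMD targets, the counts table held 1, Snhg4, at under 1.1 CPM in every library, with a log2 fold change of -1.02 on chow (edgeR adjusted p = 0.0405) that held in 8 of 18 alternatives. Snhg4 lost its call without LKO chow libraries 1 and 2 and kept it without libraries 3 and 4.

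**Figure D4:**
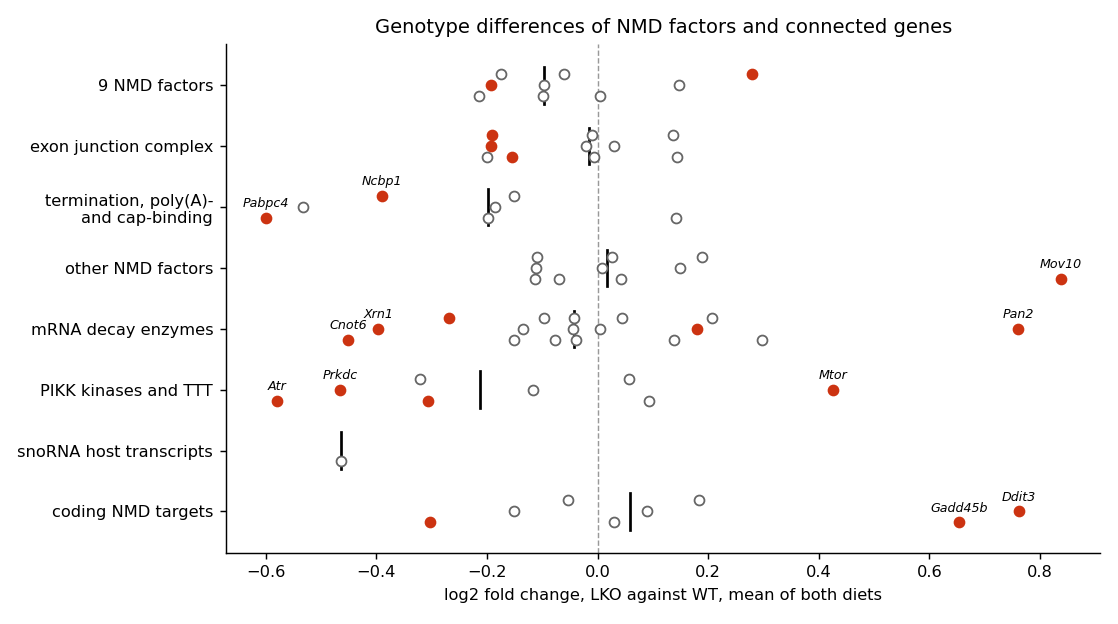
Fitted log2 fold changes in LKO against WT, as the mean of both diets, for the 9 NMD factors and the connected lists. Each point is a gene, filled red where it passed the adjusted p threshold of 0.05, and black bars are list medians. The 9 factors stay within 0.28 of 0, while Mov10 and Pan2 reach 0.84 and 0.76.

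Markers of cells other than hepatocytes were summed beside these differences. In WT chow and then LKO chow, the B and plasma cell markers (5 genes) summed to 8.36 to 26.3 and 7.20 to 12.2 CPM, the bile duct markers (5 genes) to 32.6 to 41.9 and 23.5 to 41.0 CPM, and the T and NK cell markers (5 genes) to 4.25 to 5.99 and 3.46 to 4.802 CPM. In the same order, the Kupffer cell markers (6 genes) summed to 184.5 to 457 and 93.9 to 435 CPM, the endothelial markers (6 genes) to 116.5 to 296 and 107 to 321 CPM, and the stellate cell markers (6 genes) to 204 to 330.1 and 233 to 361 CPM. On HFD the bile duct markers summed to 38.5 to 62.0 CPM in WT libraries and 26.6 to 43.8 CPM in LKO libraries. On both diets each of these lists overlapped between genotypes, whereas the hepatocyte markers were higher in every LKO HFD than in every WT HFD library. None of the markers was at 0 in any group. The part of these cells and of the hepatocyte share in the levels of Upf2, Smg1, Smg8 and Smg9 was not tested. Counts are per gene, and annotated transcripts that are themselves NMD substrates, of which Smg1, Smg5 and Smg6 have 1 each, cannot be told apart from the coding transcripts.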

How the data were processed

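Liver poly(A) RNA of mice was sequenced in 16 libraries as paired-end reads per the labels' protocols. The submitters' processing notes name mm10, Bowtie2 and DESeq2, and the counting tool, its annotation and its use of strand are not given in the sources used here. The deposited values are the authors' estimated counts (expected counts) for each gene symbol, 51.1% of them whole (tolerance 1e-06), which were rounded to whole numbers for the tests. Another deposited file, of 35712 genes and named RPKM, holds the same estimated counts, its chow columns standing 1 row below their genes. After these were moved up, 0 of the members' values differed (relative tolerance 1e-06), and that file served as an alternative.

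Genes were tested with edgeR 4.0.16 in R 4.3.3: TMM scaling, filterByExpr with the 4 groups, robust quasi-likelihood fits of 1 mean per group over all 16 libraries, 2-sided, Benjamini-Hochberg adjusted over 14434 genes, with 6 contrasts. CPM values are TMM-scaled. Ratios of the estimated counts, with nothing added, were compared by exact permutation tests. Adding 0.5 to each count was an alternative for the ratios. Alternatives were DESeq2 1.42.0, DESeq2 size factors in edgeR, upper-quartile scaling, limma 3.58.1 voom with quality weights, a minimum mean count of 50 or no filter, only the groups compared, a replicate block, omission of single libraries or of LKO chow libraries 1 and 2 or 3 and 4, and the second table. The scripts were tested on simulated data with changes larger than those of the 9 members, so that test does not bear on calls of the members' size.

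The members and lists were chosen with earlier results of these data known. Named genes are all 9 members, Arglu1 and, from each of 7 lists, up to 4 called genes with the lowest p in a comparison. Atm and Trrap were named besides, as the other PIKK genes of their list. Of 20 decay enzyme symbols, 3 were unmatched. The values of a gene in the list of other NMD factors are not reported here. Coordinates and exon lengths are from GENCODE M21 (GRCm38), matched by symbol for all 9, and promoters are from RefSeq (GRCm38.p6). Of 24 correlations between libraries of the same replicate number, 5 exceeded 0.1 (median -0.018), so libraries were not treated as paired. Libraries of different numbers were not compared in this way.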

Additional observations from a re-analysis of the deposited data

Results flagged for a closer look

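Of 36 sets of 4 libraries (9 members in 4 groups), 4 held a library whose gap to the nearest other passed Dixon's 95% critical value. Chance alone gives this in about 1 in 20 sets. Smg1 was at 71.0 CPM in LKO chow library 1, the other LKO chow libraries being at 67.2 to 67.7 CPM. Smg1 was also at 87.1 CPM in WT HFD library 2, against 74.7 to 75.8 CPM in the other WT HFD libraries. Smg5 was at 50.7 CPM in LKO chow library 2, against 37.3 to 39.5 CPM in the others. Smg9 was at 10.1 CPM in WT chow library 2, against 8.29 to 8.54 CPM in the others. The high Smg1 library of WT chow, at 100.4 CPM, did not pass this limit.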

How the results depend on the processing

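Values are log2 fold changes with adjusted p. On chow, Smg1 lost its call under voom (-0.23, 0.0769), upper-quartile scaling (-0.22, 0.0985), fits of only the groups compared (-0.26, 0.160), a mean count of at least 50 (-0.25, 0.0622), and without LKO chow libraries 1 and 2 (-0.29, 0.0631) or 3 and 4 (-0.24, 0.176). Upf2 lost it under upper-quartile scaling (-0.25, 0.0524), only the groups compared (-0.29, 0.131) and without 3 and 4 (-0.19, 0.236), and Smg9 under only the groups compared (0.38, 0.0673) and without 3 and 4 (0.29, 0.222). Over both diets, Smg8 lost it under voom (0.24, 0.0621), DESeq2 size factors (0.27, 0.0558) and without 1 and 2 (0.20, 0.171), and Smg1 without 3 and 4 (-0.18, 0.0757). The labels do not say what same-numbered libraries share beyond the number. With the replicate number as a block, Smg1 on chow was at -0.26 (0.0759), Upf2 on chow at -0.29 (0.0598) and Smg1 over both diets at -0.19 (0.0518), and 1 member was called on chow and 1 over both diets, with 0 interaction genes. It changed no other call of a member. The causes were not tested.

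Members called on chow numbered 1 under upper-quartile scaling and 0 with only the groups compared or without LKO chow libraries 3 and 4. Single omissions gave 0 to 3 on chow and 0 to 3 over both diets, and moved Smg1 from -0.33 to -0.15, Upf2 from -0.34 to -0.20 and Smg9 from 0.34 to 0.46 on chow, and Smg1 from -0.23 to -0.14 and Smg8 from 0.23 to 0.37 over both diets. Omitting WT chow library 3 or LKO chow library 3 or 4 left 0 members called on chow, and omitting WT chow library 4 left 1. Over both diets 0 remained without WT chow library 3, WT HFD library 2 or LKO HFD library 3 or 4.

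Values near 0 took the other sign: Upf1 on chow under DESeq2 (-0.0043), its size factors (-0.0047) and without LKO chow libraries 3 and 4 (-0.025); Smg6 on HFD under DESeq2 (-0.0032), its size factors (-0.0035), upper-quartile scaling (-0.016) and the second table (-0.00018); Smg5 over both diets under DESeq2 (-0.0075), voom (-0.0081), DESeq2 size factors (-0.0082) and without 1 and 2 (-0.038). Upf3b on chow did so under voom (0.092), upper-quartile scaling (0.045), a mean count of at least 50 (0.013) and without 1 and 2 (0.17). Single omissions gave -0.022 to 0.074 for Upf1 and -0.086 to 0.060 for Upf3b on chow, -0.031 to 0.077 for Smg6 and -0.19 to 0.034 for Smg9 on HFD, and -0.051 to 0.029 for Smg5 over both diets. The ratio of Upf3a to Upf3b on HFD ran from -0.025 to 0.041, and that of Smg5 to Smg6 on chow from 0.19 to 0.44.

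Of all genes, LKO against WT gave 4519 calls on HFD under voom, and on chow 2152 with only the groups compared and 2373 without LKO chow libraries 3 and 4. HFD against chow gave 702 in WT and 750 in LKO under DESeq2 and 485 and 2053 under voom; in LKO it gave 188 with only the groups compared, 2768 without LKO chow libraries 1 and 2 and 179 without 3 and 4. The interaction gave 47 under DESeq2, 16 under voom, 0 with a mean count of at least 50, and 1264 without 1 and 2. Single omissions gave 155 to 322 in WT (lowest without WT HFD library 3), 111 to 656 in LKO (lowest without LKO HFD library 1, highest without LKO chow library 2) and 0 to 9 for the interaction.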

Other observations

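Genes with an annotated transcript of the NMD biotype in GENCODE M21 were examined after the results were seen, as a description with no test. They numbered 3797 of 13512 matched coding genes (28.1%), among them Smg1, Smg5 and Smg6. On chow 461 of the 3797 were higher and 546 lower in LKO (26.5% called, median log2 fold change 0.01), and of the 9715 genes without such a transcript 1300 were higher and 1087 lower (24.6% called, median 0.03). On HFD 351 were higher and 391 lower (19.5% called, median -0.03), against 1055 higher and 650 lower among the rest (17.6% called, median 0.00). More genes with such a transcript were thus called lower than higher on both diets, and more of the rest higher than lower. These counts were not repeated without either pair of LKO chow libraries, and the sets were not matched for expression level. Counts per gene do not show the level of the NMD transcript itself.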
